A study of Drosophila melanogaster with 16 samples.

Results

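The apoptosis genes described here are 8 genes of the core death machinery of Drosophila melanogaster: rpr, hid, grim, Diap1, Dronc, Drice, Dark and Dcp-1. They were chosen by their FlyBase symbols, matched to the gene identifiers of a count table of 17737 genes, and all 8 were found in it. The table holds RNA-seq read counts of S2 cells, a cultured line from Drosophila embryos with features of hemocytes (blood cells). The study asked whether the PARP1 protein or its enzymatic activity, the attachment of ADP-ribose chains to proteins (PARylation), shapes RNA output. In 3 libraries labelled December the cells were untreated (WT), in 3 they were given 10 µM of the PARP inhibitor PJ34 for 16 h (PARPi), and in 3 PARP1 was knocked down with siRNA (KD). A further 3 WT and 4 KD libraries are labelled October, a month with no PARPi library. No control siRNA is named for the WT cells, so the knockdown of PARP1 and the handling that went with it cannot be told apart. The study's text speaks of independent sequencing experiments, but neither it nor the labels say that the replicates came from separate cultures, so the p-values measure the spread between these libraries, which may in part be technical.

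In Drosophila, death is held in check by Diap1, a ubiquitin ligase that binds and restrains caspases, the proteases that take cells apart. Proteins of the Reaper, Hid and Grim family bind Diap1 and release the caspases from it, and cells are often committed to die by transcription of the family's genes. Dronc, the initiator caspase, is activated on a scaffold built of Dark, the fly relative of Apaf-1, and then cleaves the effector caspases Drice and Dcp-1. Caspases are made as inactive precursors, so an mRNA level does not give their activity.

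Total counts lay between 58531662 and 90439074 per library. Levels are given as CPM, counts relative to the total of the library, on a TMM scale fitted over all 16 libraries. For Parp1 mRNA WT gave 178 ± 12.2 CPM and KD gave 165 ± 15.8 CPM in December (SD, 3 libraries each), and October gave 83.4 ± 9.50 CPM (n = 3) and 75.1 ± 5.16 CPM (n = 4). Neither difference passed edgeR's quasi-likelihood test (log2 fold change -0.14, adjusted p = 0.32, and -0.15, adjusted p = 0.0962), so the libraries are called KD by their labels and every KD direction below rests on those labels. The study reports depletion of the PARP1 protein by Western blot, and its text does not tie the blot to a month or to single libraries. The mitochondrial rRNA mt:lrRNA took 9.12% to 10.7% of the counts in December WT, 8.12% to 10.8% in PARPi and 7.89% to 9.09% in December KD. In October it took 9.84% to 12.4% in WT and 15.3% to 17.1% in KD. Its log2 fold change between KD and WT was -0.43 in December (adjusted p = 0.0404) and 0.65 in October (adjusted p = 8.92e-06). The part of mt:lrRNA in the differences of both months was not tested beyond a rescaling of the libraries, given below. Of 10 hemocyte markers, 8 reached 1 CPM in every December library and 9 in every October library, with summed levels of 1264 to 1538 CPM in December and 751 to 856 CPM in October, while 3 of 9 markers of other cell types reached 1 CPM. The hemocyte markers He and Hml were lower in KD of December (log2 fold changes -0.74 and -0.40, adjusted p = 0.00578 and 0.00619) and He in KD of October (-1.38, adjusted p = 1.59e-09). The hemocyte markers ush (0.36, adjusted p = 1.53e-05) and Ppn (0.23, adjusted p = 0.0059) were higher in KD of October, and twi, a mesoderm marker, was higher in KD of both months (0.48 and 0.18, adjusted p = 0.000884 and 0.0269). Fas3, an epithelial marker with a mean under 1 CPM, was lower in KD of October (-0.87, adjusted p = 0.0212). Against PARPi, KD of December was lower in He and Hml (-0.75 and -0.37, adjusted p = 0.00751 and 0.0135) and higher in twi (0.43, adjusted p = 0.0015). The part of these markers in the values below was not tested. Shares of genes called higher or lower, given below, hold for TMM scaling. With plain library totals that omit the 20 most counted genes, the split of calls moved from 18 higher and 16 lower to 19 and 5 in PARPi, from 244 and 663 to 1024 and 271 in December KD, and from 349 and 299 to 788 and 129 between KD and PARPi. It moved from 1665 and 1699 to 993 and 2660 in October KD, from 1054 and 730 to 362 and 2651 in the difference between months, and from 3935 and 3836 to 6258 and 1994 between WT of the months. These are bulk samples, so fewer cells of a kind and less RNA per cell cannot be told apart.

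Positions are those of the BDGP6 assembly (annotation of Ensembl release 115). The genes rpr (FBgn0011706), grim (FBgn0015946) and hid (FBgn0003997) lie on the minus strand of chromosome arm 3L. The gene hid spans 18167745 to 18185641 with 4018 bp of exons, grim lies at 18302719 to 18304417 as a single exon of 1699 bp, and rpr at 18397535 to 18398435 as a single exon of 901 bp. On the same arm, Diap1 (FBgn0260635) lies at 16038410 to 16051034, with 3143 bp of exons in 6 transcripts, and Dronc (FBgn0026404) at 9968479 to 9971002, with 2015 bp of exons. Drice (FBgn0019972) is a single exon of 1927 bp on 3R at 29799658 to 29801584, while Dark (FBgn0263864) and Dcp-1 (FBgn0010501) lie on 2R, at 17020027 to 17026703 with 4883 bp of exons and at 23551313 to 23553547 with 1749 bp.

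Among the 3 inducers of death nearly all reads fell on rpr, which is also the shortest of them. The stretch from hid to skl, a further gene of the family, is 272198 bp long and holds 16 annotated genes. Over all 16 libraries rpr had 47428 reads, hid 930, skl 57 and grim 7, and rpr was the only gene of the stretch with over 1000 reads. The other genes between them had at most 97 reads (CG7320). The distance is 117078 bp from hid to grim, 93118 bp from grim to rpr and 40126 bp from rpr to skl, so the read-rich gene stands between neighbours with few reads on either side.

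**Figure D1:**
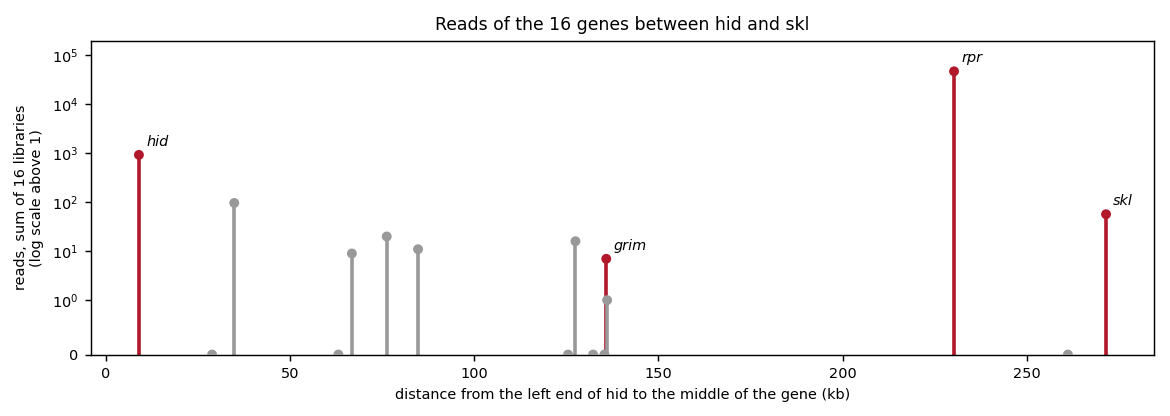
Reads summed over the 16 libraries (vertical axis, log scale above 1) of the 16 genes between hid and skl, against their distance from the left end of hid (kb). The 4 genes of the family are in red. rpr stands at 47428 reads, hid at 930, skl at 57 and grim at 7.

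The gene grim was at the edge of detection. It had 0 reads in 12 of the 16 libraries, 2 reads in December KD replicate 3, 2 each in October KD replicates 1 and 2, and 1 in October KD replicate 4. All 9 WT and PARPi libraries were at 0, and a count of 0 allows a level of up to 0.0332 to 0.0513 CPM, the worth of 3 reads, depending on the library (counting error only). The reads in KD libraries were below that limit. With under 10 reads in total, grim passed the filter on low counts in none of the fits, so the tests below cover 7 of the 8 genes.

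Per kilobase of exon, Diap1 had the highest level of the 8 genes in all 5 groups. In December WT it stood at 123 ± 5.29 CPM per kb (SD, n = 3), above Drice at 42.8 ± 3.28, rpr at 33.6 ± 1.87 and Dronc at 26.7 ± 0.28 CPM per kb. These 4 levels did not overlap between libraries. Below them came Dcp-1 at 8.01 ± 0.58, Dark at 5.17 ± 0.22 and hid at 0.10 ± 0.037 CPM per kb, again without overlap. In October WT the levels of rpr (59.6 ± 4.55 CPM per kb, n = 3), Dronc (51.4 ± 0.96) and Drice (48.2 ± 2.11) lay near that of Diap1 (68.9 ± 2.63). Diap1 and rpr (at least 67.2 against at most 64.9 CPM per kb) did not overlap in that group, rpr and Dronc (at least 56.5 against at most 52.1) did not either, and Dronc and Drice were separated only by 50.3 against 49.8 CPM per kb. The effector caspases thus differed in level throughout: Drice stood above Dcp-1 in each library. Dark shares 2779 bp of exon with a gene on the other strand, Dcp-1 239 bp and Diap1 347 bp (asRNA:CR45889). How the counting treated such stretches is not given, and the levels per kb use the whole exon length. The levels of these 3 genes, and the order of Dcp-1 and Dark, are therefore not firm.

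**Figure D2:**
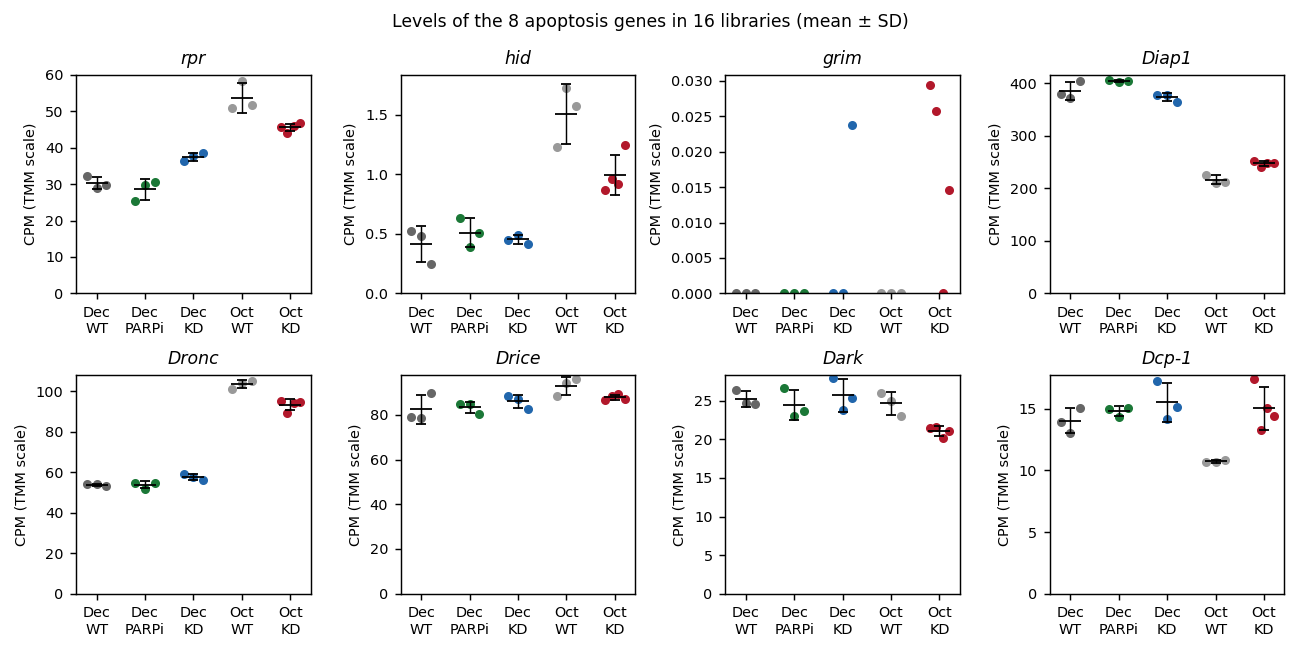
Level of each of the 8 genes (CPM on the TMM scale, axes from 0) in the 16 libraries, by month and treatment. Points are libraries and black marks are the mean ± SD, left out for grim, which had at most 2 reads in a library. Diap1 was lower in October than in December, and rpr, hid and Dronc were higher.

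Inhibition of PARylation by PJ34 left the 7 tested genes without a call. None had an adjusted p below 0.05 in edgeR's test and none an unadjusted p below 0.05, and DESeq2 called none either (hid had no adjusted p there), against 0.290% of the 11729 genes tested by edgeR (0.153% higher and 0.136% lower). WT libraries held rpr at 32.2, 28.9 and 29.8 CPM and PARPi libraries at 25.4, 29.7 and 30.6 CPM, and the groups overlapped. Diap1 stood at 380, 372 and 404 CPM in WT and at 407, 403 and 404 CPM in PARPi, so PARPi replicate 2 lay among the WT values.

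The fitted changes between PARPi and WT lay between -0.09 for rpr (95% interval -0.24 to 0.07) and 0.30 for hid (-0.30 to 0.89). For Diap1, Dronc, Drice, Dark and Dcp-1 the changes were 0.07, -0.0025, 0.01, -0.05 and 0.07, with standard errors of 0.062 to 0.079. Their 95% intervals lay within -0.19 and 0.23, so a larger change of these 5 genes fell outside the intervals. A p above the threshold does not show that PJ34 had no effect on them. hid, with the widest interval, had 19 to 53 reads per WT or PARPi library.

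In the December libraries labelled KD, rpr, whose protein antagonizes Diap1, was the only called gene of the 7. Of all genes tested, 7.73% were called (2.08% higher and 5.65% lower). The rpr level was 36.2, 37.7 and 38.5 CPM in KD, above all 3 WT libraries (28.9 to 32.2 CPM). The log2 fold change was 0.28 ± 0.078 (SE, adjusted p = 0.0283), a level 1.22-fold that of WT. An exact permutation test (two-sided) gave p = 0.1, the smallest that 3 against 3 libraries allow. The call was lost without KD replicate 1, 2 or 3 (adjusted p = 0.0551, 0.0924 and 0.169) and without WT replicate 2 or 3 (0.143 and 0.113). In these fits the log2 fold change was 0.25 to 0.32.

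No other gene of the group passed the test in December KD. Dronc was 59.1, 57.9 and 56.3 CPM in KD and 54.1, 54.0 and 53.1 CPM in WT, without overlap, but the log2 fold change of 0.08 ± 0.062 had an adjusted p of 0.553. Diap1 was 378, 378 and 365 CPM in KD, overlapping the WT values (log2 fold change -0.07 ± 0.065, adjusted p = 0.626). For Drice, Dark and Dcp-1 the log2 fold changes were 0.04, 0.00092 and 0.12, with overlapping groups. The level of hid was 0.45, 0.49 and 0.42 CPM in KD and 0.52, 0.48 and 0.24 CPM in WT, a log2 fold change of 0.10 ± 0.30.

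Set directly against PARPi, the KD libraries of December again had rpr as the only called gene of the 7, while 5.52% of all genes were called (2.98% higher and 2.55% lower). The rpr log2 fold change was 0.37 ± 0.078 (adjusted p = 0.00715), with all KD libraries (36.2 to 38.5 CPM) above all PARPi libraries (25.4 to 30.6 CPM). Without KD replicate 3 the adjusted p was 0.0759. Same-numbered libraries of these 2 groups deviated together, though not clearly so for replicate 3. With the number as a block rpr stayed called at 0.37, while 1738 in place of 648 genes were called. Diap1 was lower in all KD libraries (365 to 378 CPM) than in all PARPi libraries (403 to 407 CPM). Its log2 fold change of -0.14 ± 0.065 had an unadjusted p of 0.049 and an adjusted p of 0.234, so it was not called. Dronc was higher in all KD libraries (56.3 to 59.1 CPM) than in all PARPi libraries (51.8 to 54.9 CPM), also without a call (log2 fold change 0.08, adjusted p = 0.492).

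October gave another picture. Of the 7 tested genes, 6 were called between KD and WT, against 27.8% of the 12096 genes tested. Higher in KD were 2 of them, Dcp-1 and Diap1 (13.8% of all genes were called higher), and lower were 4, rpr, hid, Dark and Dronc (14.0% of all genes). The median log2 fold change of the 7 was -0.15, beside 0.011 over all genes. Drice was not called. The exact permutation test (two-sided) gave p = 0.0286, the smallest that 3 against 4 libraries allow, for rpr, Diap1, Dronc, Dark and Dcp-1, and p = 0.0857 for hid and for Drice. The permutation test was not run over all genes, so no share stands beside these values.

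Among the inducers, rpr was 45.6, 44.2, 45.9 and 46.7 CPM in October KD and 50.9, 58.4 and 51.8 CPM in October WT. All KD libraries lay below all WT libraries. The log2 fold change was -0.23 ± 0.052 (adjusted p = 0.00196), a level 0.85-fold that of WT and opposite in sign to December. The level of hid was 0.87, 0.97, 0.92 and 1.24 CPM in KD and 1.23, 1.72 and 1.58 CPM in WT. KD replicate 4 lay just above the lowest WT library, and the other KD libraries lay below WT. With 59 to 115 reads per October library, its log2 fold change was -0.59 ± 0.19 (adjusted p = 0.0214). The call was lost without KD replicate 1 (adjusted p = 0.0549), KD replicate 3 (0.0528), WT replicate 2 (0.12) or WT replicate 3 (0.068).

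Diap1, the caspase inhibitor, was 252, 241, 248 and 249 CPM in October KD and 226, 211 and 213 CPM in WT. Every KD library was higher than every WT library, by a log2 fold change of 0.20 ± 0.045 (adjusted p = 0.00251). With the plain library totals, which move the median of all genes in this comparison to -0.063, the log2 fold change of Diap1 was 0.12 (adjusted p = 0.0688). Relative to that median it was 0.18 under both scalings.

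The 2 parts of the apoptosome, the scaffold Dark and the caspase Dronc, were both lower in October KD. Dronc was 95.2, 89.5, 94.1 and 94.9 CPM in KD and 101, 104 and 105 CPM in WT. The log2 fold change of -0.15 ± 0.044 (adjusted p = 0.0177) was small, although the groups did not overlap, and the adjusted p was 0.0574 without KD replicate 2 and 0.0591 without WT replicate 2. Dark was 21.5, 21.6, 20.1 and 21.1 CPM in KD and 26.1, 24.9 and 23.0 CPM in WT. It fell by 0.23 on the log2 scale (SE 0.058, adjusted p = 0.00571), again without overlap. An antisense RNA gene, asRNA:CR44390, shares 2779 bp of exon with Dark on the other strand and had 3581 reads beside 29448 for Dark. It moved the other way in October (log2 fold change 0.53, adjusted p = 0.000764). The sources do not say whether the counting used strand, so reads of these 2 genes cannot be fully told apart.

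The effector caspases went apart in October. Dcp-1 was 17.4, 13.2, 15.0 and 14.4 CPM in KD and 10.6, 10.7 and 10.8 CPM in WT. The WT libraries were nearly equal and all KD libraries lay above them, at a log2 fold change of 0.49 ± 0.079 (adjusted p = 9.48e-05), a level 1.40-fold that of WT. Drice was 86.9, 88.4, 89.3 and 87.0 CPM in KD and 88.3, 94.3 and 96.0 CPM in WT, and the groups overlapped (log2 fold change -0.08 ± 0.045, adjusted p = 0.238). With the plain library totals it was called at -0.15 (adjusted p = 0.0174). Per 100 reads of Drice there were 11.6 ± 0.43 reads of Dcp-1 in October WT (SD, n = 3) and 17.1 ± 2.11 in October KD (n = 4), beside 17.0 ± 0.54 to 18.0 ± 1.64 in the December groups (n = 3 each). The October WT libraries thus stood below all others in this ratio. Dcp-1 shares 239 bp of exon on the other strand with pita, a zinc finger gene with 39839 reads beside 17272 for Dcp-1. The pita log2 fold change in October was 0.07 (adjusted p = 0.402).

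**Figure D3:**
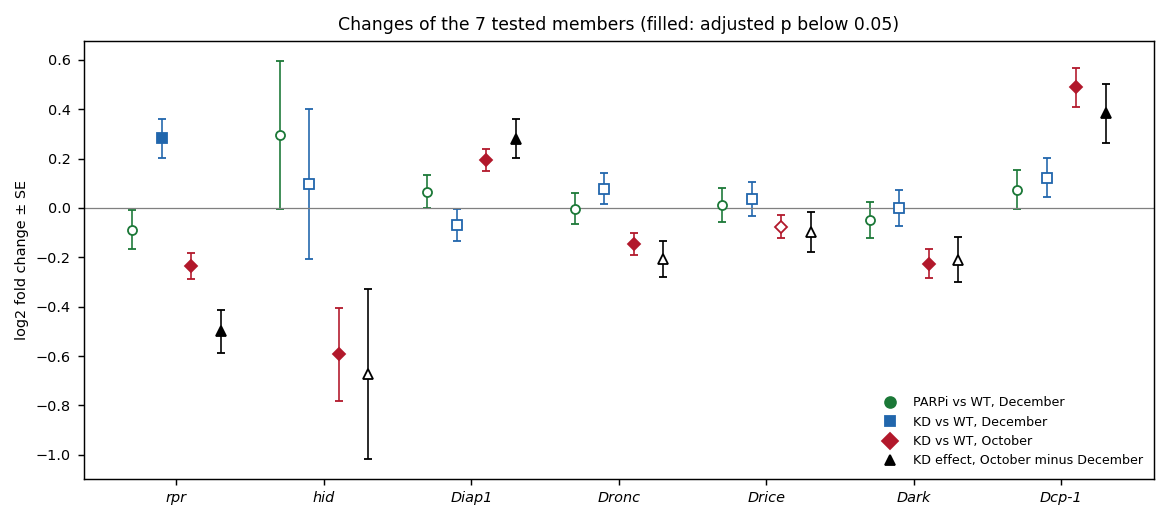
Log2 fold change ± SE (edgeR) of the 7 tested genes for PARPi and KD against WT in December, for KD against WT in October, and for the difference between the KD effects of the months. Filled marks have an adjusted p below 0.05, and rpr is filled at 0.28 in December KD and at -0.23 in October KD.

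The difference between the months was tested as an interaction of KD and month over the 13 WT and KD libraries, in which 14.1% of all genes were called (8.33% higher and 5.77% lower in October relative to December). Of the 7 genes, 3 were called. For rpr the KD effect of October was lower than that of December by a log2 difference of -0.50 ± 0.086 (adjusted p = 0.000132), and it was called with each library left out in turn (adjusted p at most 0.00126). Diap1 had a difference of 0.28 ± 0.077 (adjusted p = 0.0121) and Dcp-1 of 0.38 ± 0.12 (adjusted p = 0.0272). The Dcp-1 call was lost without December KD replicate 2 (adjusted p = 0.137) or 3 (0.0656), December WT replicate 3 (0.0857), October KD replicate 1 (0.066) or October WT replicate 2 (0.0553), or with the filterByExpr filter (0.0554). The differences for Dronc (-0.21, adjusted p = 0.0568), Dark (-0.21, 0.131), hid (-0.67, 0.211) and Drice (-0.10, 0.49) did not pass. Dronc passed with DESeq2 (adjusted p = 0.00524), RLE size factors (0.0414), filterByExpr (0.0128) and a length trend removed (0.0449).

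The interaction also depended on scaling. With the plain library totals the median difference of all genes was -0.18, and Diap1 (0.07, adjusted p = 0.602) and Dcp-1 (0.17, 0.363) were no longer called, while Dronc, Drice and Dark were called lower (-0.42, -0.31 and -0.43). Relative to the median of all genes the values were nearly the same under both scalings, at -0.53 and -0.53 for rpr, 0.25 and 0.24 for Diap1, and 0.35 and 0.35 for Dcp-1. The rpr difference was called under both. The markers ush (0.38) and Ppn (0.37) had a called difference in the same direction as Diap1, and He (-0.62) and twi (-0.29) in that of rpr, and their part was not tested.

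The pairing of inducer and inhibitor can be read within each library, where no scaling enters. Per 100 reads of Diap1 there were 7.88 ± 0.55 reads of rpr in December WT (SD, n = 3; range 7.38 to 8.47), 7.06 ± 0.72 in PARPi (6.24 to 7.59) and 10.0 ± 0.48 in KD (9.59 to 10.5). In October there were 24.9 ± 2.62 in WT (22.5 to 27.7) and 18.4 ± 0.31 in KD (n = 4, 18.0 to 18.8). KD lay above WT in December and below it in October, in both months without overlap, and all October values lay above all December values. Dronc behaved alike, with 14.0, 13.3 and 15.5 reads per 100 Diap1 reads in WT, PARPi and KD of December and 47.8 and 37.7 in WT and KD of October. The Drice values were 21.4, 20.6, 23.1, 42.9 and 35.5 in the same order. A ratio shows unequal levels of its 2 genes and does not tell which of them changed.

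**Figure D4:**
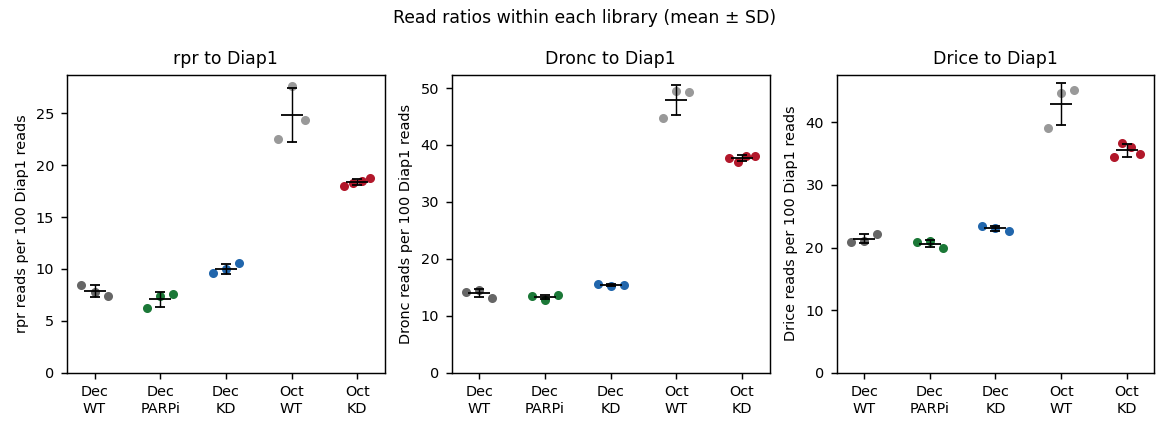
Reads of rpr, Dronc and Drice per 100 reads of Diap1 in each of the 16 libraries, with mean ± SD per group (axes from 0). For rpr the ratio was 7.88 in December WT, 10.0 in December KD, 24.9 in October WT and 18.4 in October KD.

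Untreated cells of the 2 months also differed in these genes. Of the 7 genes, 6 were called between October WT and December WT, where 61.4% of all genes were called (31.1% higher and 30.3% lower) and the median of all genes was 0.097. Markers of cell identity moved between the same libraries: all 10 hemocyte markers were called, 5 higher and 5 lower in October, among them Hml (-4.28), Sr-CI (3.18), He (2.58) and Pxn (-1.53), and of the markers of other cell types twi (1.08) and elav (0.51) were higher and Mef2 (-0.60) lower. Their part in the differences of the apoptosis genes was not tested. Month here is only a label, and culture, sequencing and other conditions that go with it cannot be told apart. Higher in October were hid (log2 fold change 1.83 ± 0.25, adjusted p = 1.2e-07), Dronc (0.93 ± 0.054, 1.45e-15) and rpr (0.81 ± 0.063, 1.63e-12). Lower were Diap1 (-0.85 ± 0.057, 4.21e-14) and Dcp-1 (-0.40 ± 0.088, 0.000182). The groups of these 5 genes did not overlap, and an exact permutation test gave p = 0.1 for each, the smallest possible with 3 against 3. How many of all genes were without overlap between these groups was not counted.

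For the remaining caspase and the scaffold the months were closer. Drice was called higher at 0.15 ± 0.059 (adjusted p = 0.0263), but its groups overlapped and the call was lost without December WT replicate 1 (adjusted p = 0.109) or 2 (0.131) or October WT replicate 2 (0.0794) or 3 (0.0832). Dark had a log2 fold change of -0.05 ± 0.067 (adjusted p = 0.535). With the plain library totals the median of all genes between the months rose to 0.46, and Dark then stood at 0.31 (adjusted p = 0.000395) and Dcp-1 at -0.04 (adjusted p = 0.726). Relative to the median, Dark was at -0.15 and -0.14 and Dcp-1 at -0.50 and -0.50 under the 2 scalings. With a trend on exon length removed, Dark was called higher in October at 0.18 (edgeR, adjusted p = 0.00629), beside a median of 0.080 over all genes. Its direction between months thus depended on the processing.

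Several of the genes also varied together within months, with the differences between treatments left in. After the mean of each month was subtracted from log2 CPM, Pearson's r over the 16 libraries was 0.73 between rpr and Dronc, -0.72 between rpr and Diap1, -0.75 between Diap1 and Dronc, and 0.73 between Diap1 and Dcp-1. Drice had no r above 0.49 in size with another gene of the group. These values describe 5 groups of libraries and carry no test. They include the differences between KD, PARPi and WT given above and are not separate from them. The spread of r over all pairs of genes was not counted. Among the 7711 genes of at least 1 CPM, each gene itself left out, the closest to rpr were CG9813 (r = 0.93) and cbt (0.92). The closest to Diap1 were RpS13 (0.95) and Inos (0.94), and to Dronc CG3792 (0.97) and Ibf1 (0.93). The closest to Dark were CG6928 (0.93) and Smox (0.92), to Dcp-1 asRNA:CR45835 (0.94) and Vha100-2 (0.90), and to Drice CG7239 (0.86) and CG32554 (0.81).

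Around the 8 genes, 25 further apoptosis genes and 17 genes of upstream death signalling were followed. PARPi called none of the 23 and 17 tested, with 6 and 3 at an unadjusted p below 0.05. The share of all genes at an unadjusted p below 0.05 was not counted, so such counts, here and below, cannot be judged. December KD called 1 of 23, eIF3m, a translation factor subunit also described as a partner of Dronc (log2 fold change -0.34, adjusted p = 0.00806), and 1 of 17, Traf4, an adaptor of TNF signalling (0.33, adjusted p = 0.00505). These shares stand beside 7.73% of all genes. The eIF3m call was lost without KD replicate 1 (adjusted p = 0.059), KD replicate 3 (0.0632) or WT replicate 3 (0.0859) and with the plain library totals (log2 fold change -0.21, adjusted p = 0.0502), and that of Traf4 without KD replicate 3 (0.0529). Between KD and PARPi, where 5.52% of all genes were called, none of the 23 was called (8 at an unadjusted p below 0.05) and 2 of the 17 were called, Traf4 (0.26, adjusted p = 0.0289) and tefu, the fly ATM kinase (0.30, 0.0378). Both calls were lost without KD replicate 1 or 3 or PARPi replicate 2 or 3 (adjusted p 0.0558 to 0.219) and in a fit of only these 2 groups (0.0518 and 0.0596), and that of tefu without WT replicate 2 (0.0578). October KD called 11 of 25, of which 5 were higher and 6 lower, and 3 of 17, of which 2 were higher and 1 lower, beside 27.8% of all genes (13.8% higher and 14.0% lower). The median log2 fold changes in October were -0.085 and -0.026, beside 0.011 over all genes.

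By size of change in October KD, eIF3m led with a log2 fold change of 0.79 (adjusted p = 4.43e-09), opposite in sign to December. Drep1, the inhibitor of the DNA-cutting caspase-activated nuclease, was at -0.68 (adjusted p = 2.02e-06), Cyt-c-p, the somatic cytochrome c, at -0.33 (2.83e-05) and EndoG, a mitochondrial nuclease, at -0.29 (0.00044). Diap2, a second inhibitor of apoptosis, was at -0.20 (adjusted p = 0.00185), while its relative Diap1 was higher. Upstream, Traf6 was lower (-0.34, adjusted p = 0.00367), and Traf4 (0.31, 5.97e-05) and tefu (0.28, 0.00207) were higher. The damage regulator p53, a known activator of rpr transcription, was at 0.04 in December KD (adjusted p = 0.822) and -0.08 in October KD (adjusted p = 0.208), and egr, the TNF ligand, at 0.01 (0.946) and -0.11 (0.0578). In October KD egr was called lower with DESeq2 (adjusted p = 0.0231), filterByExpr (0.0474), the length trend removed (0.0416) and the plain library totals (-0.19, 0.00316), and p53 with the plain library totals (-0.15, 0.015).

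**Figure D5:**
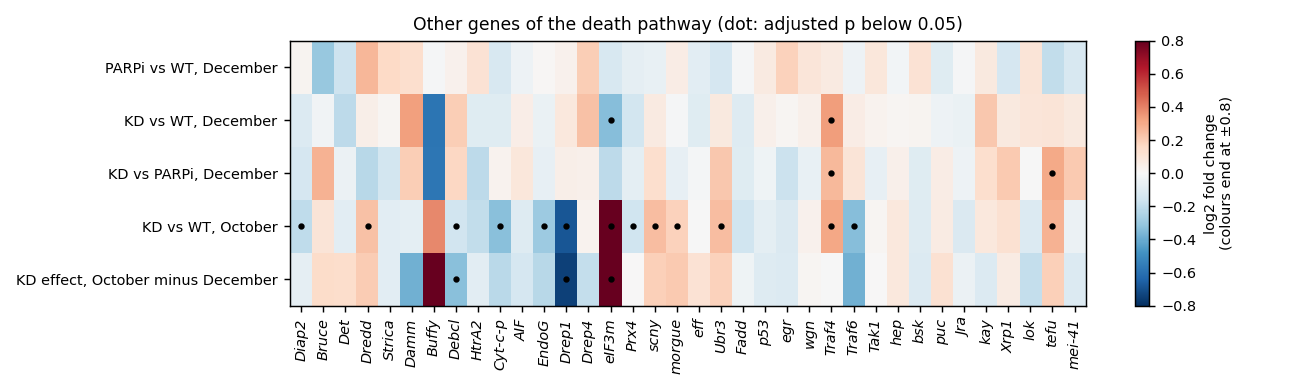
Log2 fold change (colour, ending at ±0.8) of 36 genes of the 2 wider lists in 5 comparisons, with dots where the adjusted p is below 0.05. The 6 genes under 1 CPM in every group are left out. Most dots lie in the October KD row, and the PARPi row has none.

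Between untreated cells of the 2 months, 20 of the 25 apoptosis genes (11 higher and 9 lower in October) and 12 of the 17 upstream genes (3 higher and 9 lower) were called, beside 61.4% of all genes (31.1% higher and 30.3% lower). Drep1 was 3.59 higher on the log2 scale in October, p53 1.23 and Debcl, a Bcl-2 family protein, 1.07, while eIF3m was at -2.01, Bruce, a large ubiquitin ligase that guards against death, at -1.02, and mei-41, the fly ATR kinase, at -1.03. The interaction of KD and month called 3 of the 25 (eIF3m at 1.15, Drep1 at -0.75 and Debcl at -0.34) and none of the 17 (2 at an unadjusted p below 0.05), beside 14.1% of all genes.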

How the data were processed

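The assay was paired-end RNA-seq of S2 cells after ribosomal depletion (16 libraries). Per the study's methods and the submitters' processing notes, reads were aligned to BDGP6 with STAR 2.6 and counted per gene with HTSeq 0.10.0, and the authors deposited raw counts, with no normalization or filter. How strand and multiply mapped reads were handled is not given in the sources at hand. Of 17737 identifiers, 17599 matched the annotation.

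Genes under 10 counts in total in a fit were dropped, counts were scaled by TMM, and all genes were tested by quasi-likelihood in edgeR (version 4.0.16 under R 4.3.3) with Benjamini-Hochberg adjustment at 0.05. December groups were fitted in 1 model of 9 libraries, October in 1 of 7, and the interaction and the months in 1 of 13. CPM for display used 1 TMM scale, and log2 CPM for likeness a prior count of 2. Alternatives were DESeq2 (1.42.0), RLE size factors, no filter, filterByExpr, only the groups compared, plain library totals that omit the 20 most counted genes, a trend on exon length (spline, 5 degrees of freedom), both months with a term for the month, a replicate block, and each library left out. The test was also run on simulated counts drawn independently for each library, without the paired deviations described below. No statement here rests on that run.

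Members and lists were chosen with earlier results of these data known. Named genes were the 8 members, skl, Diap2, p53 and egr, up to 4 called genes of at least 1 CPM per list and comparison with the largest change, and the 2 genes most like each member. Marker genes were named by this rule, apart from Fas3, which was under 1 CPM, and pita and the antisense RNA genes as overlapping genes. Same-numbered PARPi and KD libraries of December deviated together (r 0.13 to 0.57 in the 3 pairs), so those numbers were taken as pairs, from the data and not the labels. Libraries of different number in these 2 groups gave r of -0.42 to 0.21, which overlaps that range. PARPi replicate 3 was closer to KD replicate 2 (0.21) than to KD replicate 3 (0.13), so the third pair is not clear. For WT and PARPi, WT and KD of December, and WT and KD of October not all same-numbered pairs passed 0.1 (lowest r -0.0044, -0.036 and -0.0053). No pair of replicates agreed within sampling noise (chi-square 7.35 to 131 per gene). Limits for counts of 0 cover counting error only. Intervals of log2 fold changes were built from the standard errors of the edgeR fit, which include the spread between libraries. They used a normal distribution, with no allowance for the small number of libraries.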

Additional observations from a re-analysis of the deposited data

Results flagged for a closer look

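The KD effect differed between October and December in an interaction test (edgeR, 13 libraries) for 3 of the 7 apoptosis genes tested and 3 of the 25 further apoptosis genes, with none of the 17 upstream genes, beside 14.1% of all genes. The differences in log2 fold change, October minus December, were -0.50 for rpr, 0.28 for Diap1, 0.38 for Dcp-1, 1.15 for eIF3m (adjusted p = 1.27e-09), -0.75 for Drep1 (adjusted p = 0.00996) and -0.34 for Debcl (adjusted p = 0.00364). For rpr and eIF3m the KD effect was called in each month, with opposite signs, but both December calls were lost when some single libraries were left out, and that of eIF3m also with the plain library totals.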

How the results depend on the processing

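Of the alternative results for members, 658 kept their direction and side of the threshold, 31 lost and 11 gained the call, and 42 changed sign. For the other named genes these numbers were 644, 18, 11 and 13. The count of members called without 1 library was 0 in PARPi, 0 to 1 in KD and in KD against PARPi of December, 4 to 6 in KD of October, 2 to 4 in the interaction and 5 to 6 between months. With both months in 1 fit and a term for the month, 1 member was called instead of 6 in October KD, since effects of both months enter 1 value. The called member was Dcp-1 (0.33, adjusted p = 0.00701), while the December call of rpr was lost (adjusted p = 0.902). The other values were rpr 0.018 (reversed against October), hid -0.31, Diap1 0.087, Dronc -0.027, Drice -0.0071, Dark -0.10, p53 -0.010, egr -0.038 and eIF3m 0.27. Of these, all but rpr changed sign against December. All other sign changes, apart from Dark between months, were of values not called. For PARPi they were Dronc (0.0010 with no filter, 0.0041 with filterByExpr, 0.027 without the top 20 genes, 0.0075 with only the groups compared), and Drice -0.018 and Diap2 -0.0088 with the length trend. For December KD they were Dark (-0.010 with no filter, -0.079 with the length trend, -0.00048 with the replicate block), egr -0.016 with the length trend, and Diap1 0.058 and Diap2 0.018 without the top 20 genes. Between KD and PARPi they were Dark -0.018 with the length trend and p53 0.063 without the top 20 genes. Between months Dark was 0.31 without the top 20 genes and 0.18 with the length trend. The cause of these changes was not tested.

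Without 1 library, signs changed in these ranges: in PARPi rpr -0.14 to 0.0096, Dronc -0.018 to 0.023, Drice -0.015 to 0.089 and Diap2 -0.023 to 0.10. In December KD the ranges were hid -0.16 to 0.28, Drice -0.0033 to 0.11, Dark -0.053 to 0.024 and egr -0.014 to 0.051, and between KD and PARPi Drice -0.020 to 0.047, Dark -0.0068 to 0.087 and Dcp-1 -0.027 to 0.074. Between months they were Dark -0.096 to 0.0031 and Diap2 -0.021 to 0.096. With the replicate block the counts of members called were 0, 1, 1 and 6 in the same order of comparisons up to October KD, as without it, and rpr between KD and PARPi was 0.37. The block changed no call of a member. It could not be fitted between months, since each number lies within 1 month. Over all genes the counts called with the block were 496 (PARPi, 34 without it), 1609 (December KD, 907 without it) and 1738 (KD against PARPi, 648 without it). Other counts moved by over 1.5 times were 135 with DESeq2, 293 with no filter, 18 with filterByExpr and 139 with the length trend in PARPi, 1269 with no filter between KD and PARPi, 1895 with both months together (907 in December KD and 3364 in October KD) and 3013 (1784 with TMM) without the top 20 genes in the interaction. Without 1 library the counts over all genes were 4 to 91 in PARPi, 251 to 1212 in December KD and 179 to 1608 between KD and PARPi. Depth limits grim and hid.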
